A study of Mus musculus with 18 samples.

Results

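The collagen genes of the mouse were examined in cell lines from malignant peripheral nerve sheath tumors (MPNST), a sarcoma of the nerve. A gene was taken when its symbol had the form Col, a type number, the letter a and a chain number, and 44 of the 35275 genes in the count table met this rule. They fall into 8 structural classes: 11 fibrillar, 6 basement membrane (type IV), 3 network-forming, 6 beaded filament (type VI), 4 transmembrane, 9 fibril-associated (FACIT), 2 multiplexin and 3 other genes. RNA-seq was run on 18 cultures of 6 lines. Tumors were raised in wild-type 129 Sv/Jae mice by injecting the left sciatic nerve with an adenovirus that carries Cas9 under the CMV promoter and U6-driven guides against *Nf1* plus a second tumor suppressor. Guides against p53 gave the *Nf1*/*p53* double knockout (dKO) and guides against *Cdkn2a*, which encodes p16 and p19, gave the *Nf1*/*Cdkn2a* dKO, so both groups carry the *Nf1* deletion, and lines without these deletions were not analysed here. Each genotype has 3 lines, each line comes from 1 tumor, and each line was grown as 3 cultures without treatment. Which cells took up the virus is not reported, so the cell of origin is not known, and the ages of the mice are not given in the labels.

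Collagens are trimers of chains whose glycine-rich repeats wind into a triple helix. Fibrillar collagens build the cross-linked fibrils that give connective tissue its strength, type IV collagens form the sheet of the basement membrane, type VI collagens form beaded filaments around cells, and FACIT collagens sit on the surface of fibrils. In peripheral nerve, Schwann cells are wrapped in a type IV collagen basement membrane while fibroblasts of the nerve make the fibrils between them, and nerve sheath tumors are rich in collagen.

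The cultures held 19560535 to 28312207 counts each, and the 3 cultures of a line summed to 65206479 to 73065228 counts. Levels below are CPM, the counts of a gene in these line sums set to a common library size after scaling by the trimmed mean of M-values (TMM). The genotypes are used as labelled: *Trp53*, which encodes p53, had 94.1, 67.5 and 58.7 CPM in the 3 *Nf1*/*p53* lines and 247, 246 and 185 CPM across the *Nf1*/*Cdkn2a* lines, whereas *Cdkn2a* itself had 42.9 to 363 CPM and 169 to 392 CPM, ranges that overlap. Some markers of fibroblasts and Schwann cells are given here, and the sums of both lists are given below. Of 12 fibroblast genes, *Fn1* had 1457 to 6323 CPM, *S100a4* 957 to 1754 CPM and *Pdgfra* 39.0 to 295 CPM, whereas *Dpt* had 0.876 to 6.60 CPM, *Pi16* at most 0.447 CPM and *Tcf21* 0 counts. *Sox10*, a defining transcription factor of Schwann cells, had 0 to 0.0990 CPM. In bulk samples, fewer cells of a type and less RNA per cell cannot be told apart.

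The chains differ in how the helix is interrupted. An uninterrupted run of repeats was counted where at least 5 triplets that start with glycine followed each other in the longest open reading frame of the GENCODE M21 transcripts. The 11 fibrillar chains encoded 2 to 3 such runs, the longest of 216 to 344 triplets. The 6 type IV chains encoded 22 to 27 runs, the longest of 39 to 66 triplets, and the 3 network-forming chains encoded 9 runs of at most 60 triplets. The transmembrane chains encoded 5 to 14 runs, the longest of 40 to 55 triplets.

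**Figure D1:**
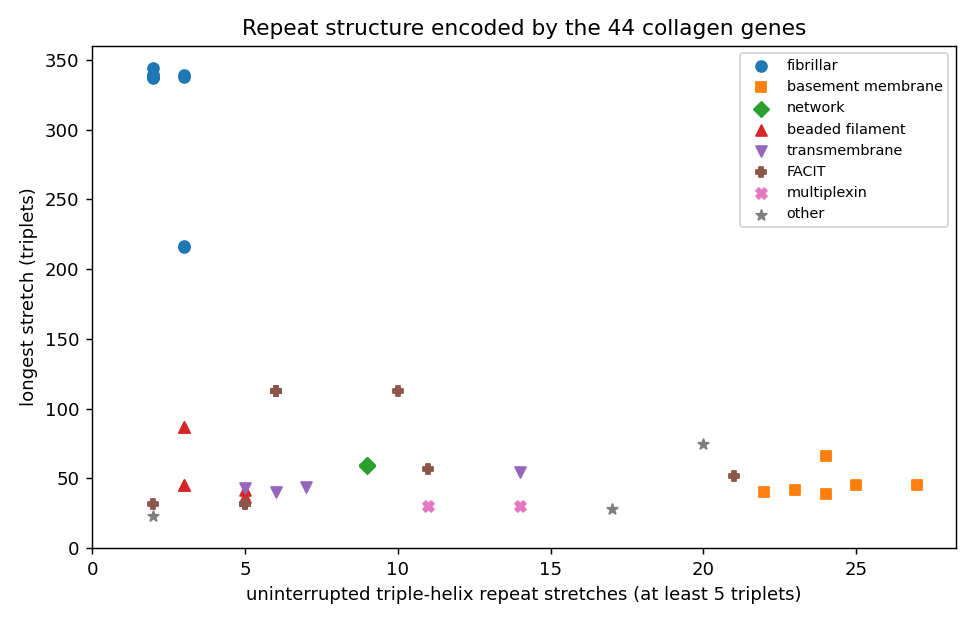
Number of uninterrupted repeat runs (x axis) against the longest run in triplets (y axis) for the 44 collagen genes, 1 point per gene, coloured by class. The fibrillar chains stand alone at 2 to 3 runs and at least 216 triplets, and the basement membrane chains at 22 to 27 runs.

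The genes occupy 15 chromosomes, and 9 pairs lie within 200 kb of each other. Of these pairs, 3 are the head-to-head pairs of type IV chains (*Col4a1* with *Col4a2*, *Col4a3* with *Col4a4*, *Col4a5* with *Col4a6*), whose start sites face away from each other. The results below turn on the first pair, which moved together, and on the pair *Col4a5* with *Col4a6*, which did not, so their promoters are shown. Each window runs from 250 bases before to 50 bases after the RefSeq start site (GRCm38.p6), is written 5′ to 3′ on the strand of the gene, and has in capitals the motifs searched on both strands. These were TATAAA (the core of a TATA box), CCAAT (the box of that name) and GGGCGG (the core of a GC box). A CCAAT of the opposite strand is printed as ATTGG, and a GGGCGG of that strand appears as CCGCCC. *Col4a1* lies on the minus strand at chr8:11312777-11313076, *Col4a2* on the plus strand at chr8:11312555-11312854, *Col4a5* on the plus strand at chrX:141475169-141475468 and *Col4a6* on the minus strand at chrX:141474027-141474326.
Col4a1: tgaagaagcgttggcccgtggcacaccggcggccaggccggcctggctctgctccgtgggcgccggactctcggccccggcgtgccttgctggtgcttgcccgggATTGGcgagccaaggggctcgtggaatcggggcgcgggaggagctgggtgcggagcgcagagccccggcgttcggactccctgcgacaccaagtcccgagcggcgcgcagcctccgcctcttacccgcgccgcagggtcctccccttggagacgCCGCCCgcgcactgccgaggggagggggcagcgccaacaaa
Col4a2: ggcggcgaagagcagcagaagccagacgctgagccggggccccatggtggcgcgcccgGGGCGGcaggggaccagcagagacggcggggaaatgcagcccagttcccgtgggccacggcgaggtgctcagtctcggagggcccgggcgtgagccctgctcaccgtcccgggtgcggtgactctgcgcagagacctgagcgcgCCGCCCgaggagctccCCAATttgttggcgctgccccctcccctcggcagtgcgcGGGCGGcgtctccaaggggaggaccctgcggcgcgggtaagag
Col4a5: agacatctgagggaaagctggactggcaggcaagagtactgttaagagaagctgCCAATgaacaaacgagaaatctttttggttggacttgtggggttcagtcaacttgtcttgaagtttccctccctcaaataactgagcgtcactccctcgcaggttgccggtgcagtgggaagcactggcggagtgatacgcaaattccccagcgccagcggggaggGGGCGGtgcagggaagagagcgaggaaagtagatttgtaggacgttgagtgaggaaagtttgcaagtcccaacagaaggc
Col4a6: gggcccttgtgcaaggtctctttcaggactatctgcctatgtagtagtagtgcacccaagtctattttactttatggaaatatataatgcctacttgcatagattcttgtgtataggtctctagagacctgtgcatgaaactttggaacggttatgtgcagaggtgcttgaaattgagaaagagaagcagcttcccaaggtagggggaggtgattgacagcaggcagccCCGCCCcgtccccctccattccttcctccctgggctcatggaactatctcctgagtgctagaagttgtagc
The windows of *Col4a1* and *Col4a2* share 78 bases (chr8:11312777-11312854), and the annotated genes themselves overlap by 22 bases. None of the 4 windows holds TATAAA. Each of the 4 holds at least 1 GGGCGG on either strand, a motif present in 35.7% of 32851 promoter windows and in 23 of the 38 windows of the 35 collagen genes in the table. For TATAAA the shares were 13.6% of all windows and 5 of 38, and for CCAAT 37.4% and 13 of 38. Such matches describe the letters only.

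Collagens made up 0.783%, 1.79% and 0.392% of all counts in *Nf1*/*p53* lines 1, 2 and 3 and 0.845%, 0.637% and 1.07% in *Nf1*/*Cdkn2a* lines 1, 2 and 3. The means were 0.990% ± 0.724 (SD, n = 3) and 0.850% ± 0.215 (SD, n = 3), and the ranges overlapped. A few genes carried most of it, since the 3 most abundant genes held 56.9% and the top 10 held 92.1% of the collagen counts. In every line 14 genes reached 10 CPM, while 17 genes stayed under 1 CPM in every line. At most 3 counts in any culture were seen for *Col6a6*, *Col9a1* and *Col26a1*.

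Divided by exon length, the type IV and fibrillar classes took different shares of the collagen total in the 2 genotypes. Type IV genes took 6.72%, 9.62% and 2.11% of the collagen CPM per kb in the *Nf1*/*p53* lines and 26.4%, 47.9% and 22.7% in the *Nf1*/*Cdkn2a* lines, so the highest *Nf1*/*p53* line lay under the lowest *Nf1*/*Cdkn2a* line. Fibrillar genes took 78.3%, 69.3% and 68.7% against 57.5%, 44.2% and 58.9%, also without overlap. Shares add up to 100%, so one class falls as another rises. The fibrillar level itself overlapped, with 651, 1415 and 281 CPM per kb in the *Nf1*/*p53* lines and 601, 352 and 802 CPM per kb across the *Nf1*/*Cdkn2a* lines. The type IV level did not, with 55.8, 196 and 8.63 CPM per kb against 275, 381 and 309 CPM per kb. With the longest transcript as the length, the type IV shares were 4.73%, 7.15% and 1.41% against 20.8%, 38.8% and 18.02%. Type VI genes took 9.23%, 14.6% and 17.8% against 9.29%, 0.994% and 9.90%, with *Nf1*/*Cdkn2a* line 2 far below the others. Network-forming genes held 1.39% to 2.19% in all 6 lines, and transmembrane genes at most 0.216%. With 3 lines against 3, an exact permutation test cannot give a p below 0.1, so these shares are described without one.

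**Figure D2:**
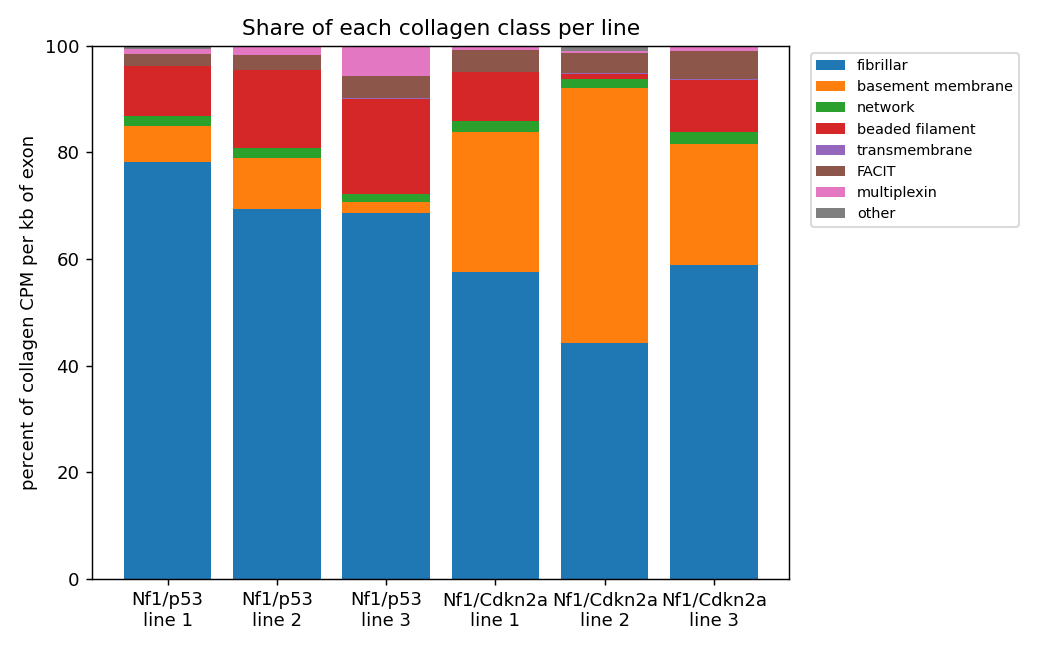
Share of each collagen class (y axis, percent of the summed collagen CPM per kb of exon) in each line (x axis), stacked to 100. The basement membrane segment spans 2.11% to 9.62% in the *Nf1*/*p53* lines and 22.7% to 47.9% in the *Nf1*/*Cdkn2a* lines.

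The genotype comparison asked which collagens differed between the *Nf1*/*p53* and *Nf1*/*Cdkn2a* dKO when the line is the replicate. It used edgeR's quasi-likelihood test on the 6 line sums with Benjamini-Hochberg adjustment over 15207 genes, and a gene was called at an adjusted p under 0.05. Of the 44 genes, 36 passed the filter on low counts, and *Col4a3*, *Col6a4*, *Col6a6*, *Col8a2*, *Col9a1*, *Col9a2*, *Col13a1* and *Col26a1* did not. *Col5a3*, *Col19a1* and *Col25a1* were called lower in the *Nf1*/*Cdkn2a* dKO, where 1.16% of all genes tested were. *Col19a1* and *Col25a1* passed the filter only through the *Nf1*/*p53* lines, so their count is not read against that share, and only *Col5a3* was called where each of the 6 lines had to reach 10 counts, 1 of 27 beside 1.73% of all genes. In edgeR, 0 of 36 were called higher (0.638% of all genes tested). Counting both directions, limma-voom called 6 of 26 beside 16.6% of all genes, DESeq2 on the 18 cultures 17 of 41 beside 39.3%, and DESeq2 on the line sums 7 of 39 beside 12%, of which 3, 4 and 1 were higher. At an unadjusted p under 0.05 stood 9 of 36, where 22.4% of all genes tested did. The 9 include *Col14a1*, *Col19a1*, *Col24a1* and *Col25a1*, which passed the filter only through the *Nf1*/*p53* lines, so they are not read against that share. The 3 lines of one genotype all lay apart from the 3 of the other for 2 genes that were higher in the *Nf1*/*Cdkn2a* dKO (14.8% of all genes tested) and for 8 that were lower (16.6%). The first were *Col4a1* and *Col4a2*, and the second were *Col2a1*, *Col5a3*, *Col6a2*, *Col14a1*, *Col17a1*, *Col19a1*, *Col24a1* and *Col25a1*. Of the second, *Col14a1*, *Col19a1*, *Col24a1* and *Col25a1* had under 10 counts in each *Nf1*/*Cdkn2a* line. They passed the filter only through the *Nf1*/*p53* lines, so the count of 8 is not read against its share. The median log2 fold change of the 36 genes was -0.56, with 14 above and 22 below 0, beside -0.023 for all genes tested. That median turned to 0.078 without *Nf1*/*p53* line 2, and to 0.024 over the 27 genes that reached 10 counts in each line. The count of 3 called genes fell to 1, *Col5a3*, without *Nf1*/*p53* line 1 and to 0 without any other line, while the calls over all genes fell from 274 to between 0 and 172.

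**Figure D3:**
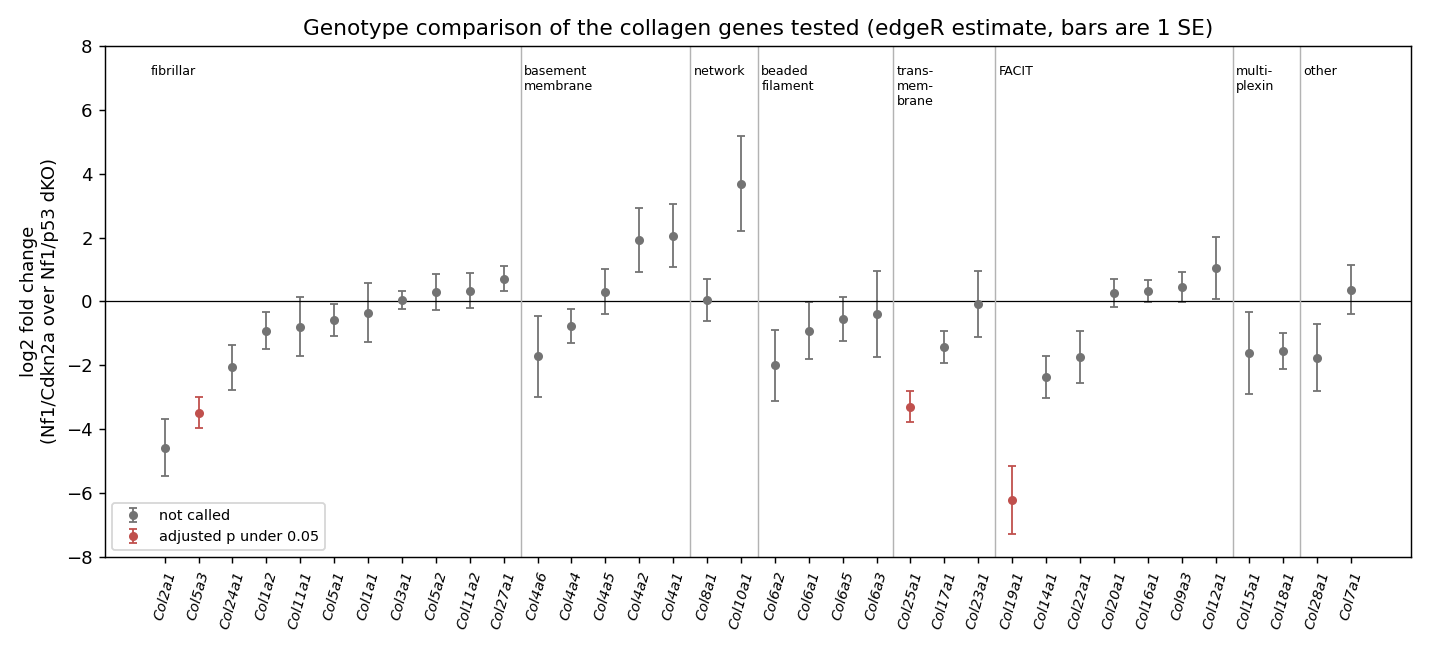
Log2 fold change (y axis, *Nf1*/*Cdkn2a* over *Nf1*/*p53* dKO, edgeR estimate from 6 line sums) of the 36 collagen genes tested, grouped by class, with bars of 1 SE. The 3 red points, *Col5a3*, *Col25a1* and *Col19a1*, were called, at -3.48, -3.30 and -6.21.

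Among the fibrillar collagens, *Col5a3* (chromosome 9, 20770050 to 20815067, minus strand, GRCm38) encodes the third chain of type V collagen, a minor fibrillar collagen that sits inside type I fibrils. It had 49.9, 110 and 47.0 CPM in *Nf1*/*p53* lines 1, 2 and 3 and 7.51, 3.49 and 7.55 CPM in *Nf1*/*Cdkn2a* lines 1, 2 and 3. Every *Nf1*/*p53* line lay above every *Nf1*/*Cdkn2a* line, and so did the cultures, with 44.99 to 113 CPM against 2.94 to 9.23 CPM. The log2 fold change was -3.48 (SE 0.48, edgeR adjusted p = 0.0361). Its adjusted p ran from 0.0486 to 0.124 with 1 line left out, while its log2 fold change stayed between -3.69 and -2.96.

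The partner chains of type V did not follow it. *Col5a1* had 349, 769 and 220 CPM in the *Nf1*/*p53* lines and 290, 197 and 415 CPM across the *Nf1*/*Cdkn2a* lines (log2 fold change -0.57, SE 0.49, edgeR adjusted p = 0.535). *Col5a2* had 436, 961 and 176 CPM against 714, 495 and 724 CPM (0.30, SE 0.56, edgeR adjusted p = 0.784). In both genes the ranges overlapped, and the sign of each estimate changed when 1 *Nf1*/*p53* line was left out, *Col5a1* to 0.091 without line 2 and *Col5a2* to -0.11 without line 3.

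*Col2a1*, the chain of cartilage type II collagen, was low throughout, with 2.29, 10.2 and 1.63 CPM in the *Nf1*/*p53* lines and 0.289, 0.130 and 0.172 CPM across the *Nf1*/*Cdkn2a* lines. The groups did not overlap, and the log2 fold change of -4.57 (SE 0.88) missed the threshold with an edgeR adjusted p of 0.0548. It passed under raw total counts, without the filter, and in both DESeq2 fits, of which 1 takes the 18 cultures as independent. It was not called by limma-voom, nor in edgeR with DESeq2 size factors or with any 1 line left out (edgeR adjusted p 0.068 to 0.168). Of the 12 listed cartilage genes outside the collagens, the transcription factor gene *Sox9* was the most abundant, with 94.2, 124 and 166 CPM in the *Nf1*/*p53* lines and 63.9, 76.4 and 34.3 CPM across the *Nf1*/*Cdkn2a* lines, also without overlap (log2 fold change -1.14, SE 0.34, edgeR adjusted p = 0.123). *Sox5* had 2.25 to 6.10 CPM, and *Acan*, which encodes aggrecan, was at 0.013 to 0.580 CPM. The list summed to 99.7 to 174 CPM against 38.9 to 82.6 CPM, mostly from *Sox9*. Of the 7 cartilage genes tested edgeR called 0, with 2 at an unadjusted p under 0.05. Their part in the level of *Col2a1* was not tested.

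The abundant fibril genes did not separate the genotypes. *Col1a1* and *Col1a2* encode the chains of type I collagen, the main fibril collagen. *Col1a1* had 1591, 4173 and 302 CPM in the *Nf1*/*p53* lines and 1698, 525 and 2540 CPM across the *Nf1*/*Cdkn2a* lines (log2 fold change -0.35, SE 0.92, edgeR adjusted p = 0.849). *Col1a2* had 2733, 5473 and 1391 CPM against 1805, 829 and 2468 CPM (-0.91, SE 0.58, edgeR adjusted p = 0.396). *Nf1*/*p53* line 2 was highest for both genes. *Nf1*/*p53* line 3 was lowest for *Col1a1* and *Nf1*/*Cdkn2a* line 2 for *Col1a2*. The estimate for *Col1a1* turned to 0.76 without *Nf1*/*p53* line 2.

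*Col3a1*, the type III fibril chain of elastic tissues, was the steadiest of the 25 genes with a mean of at least 100 counts per line. It had 894, 1258 and 686 CPM in the *Nf1*/*p53* lines and 835, 1248 and 858 CPM across the *Nf1*/*Cdkn2a* lines, a 1.83-fold range over all 6 lines (log2 fold change 0.05, SE 0.28). *Col27a1*, a fibrillar chain of cartilage and developing tissue, had the highest estimate of this class at 0.71 (SE 0.39, edgeR adjusted p = 0.336), from 20.7, 7.34 and 14.3 CPM to 22.5, 28.3 and 18.3 CPM, with overlap. *Col11a1*, a type XI chain that helps to set fibril width, spanned 3.27 to 34.3 CPM. Its partner *Col11a2* spanned 0.353 to 1.36 CPM, both with overlap between the genotypes. *Col24a1* was scarce and lay apart, with 0.232, 0.594 and 0.235 CPM against 0.128, 0.0288 and 0.0938 CPM (-2.06, SE 0.71, edgeR adjusted p = 0.159). This gene passed the filter only through the *Nf1*/*p53* lines.

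Among the basement membrane collagens, *Col4a1* (chromosome 8, 11198423 to 11312826, minus strand) and *Col4a2* (11312805 to 11449287, plus strand) encode the chains of the type IV trimer found in nearly all basement membranes. *Col4a1* had 180, 733 and 28.2 CPM in *Nf1*/*p53* lines 1, 2 and 3 and 1103, 1583 and 1249 CPM in *Nf1*/*Cdkn2a* lines 1, 2 and 3. *Col4a2* had 129, 568 and 21.2 CPM against 784, 1098 and 857 CPM. For both genes every *Nf1*/*Cdkn2a* line lay above every *Nf1*/*p53* line, and they were the 2 genes of the 36 with this pattern.

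Neither was called in the main test. The log2 fold changes were 2.06 (SE 1.00, edgeR adjusted p = 0.280) for *Col4a1* and 1.93 (SE 1.01, edgeR adjusted p = 0.308) for *Col4a2*. The *Nf1*/*p53* lines differed 26.0-fold in *Col4a1* and 26.8-fold in *Col4a2*, the *Nf1*/*Cdkn2a* lines 1.44-fold and 1.40-fold. Without *Nf1*/*p53* line 2 the estimates rose to 3.67 and 3.61, and without line 3 they fell to 1.52 and 1.39. Both genes were called by limma-voom when the line entered as a random term, and by DESeq2 over the 18 cultures, where cultures of 1 line count as independent.

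The pair kept its proportion while its level moved. The *Col4a1* to *Col4a2* ratio per kb of exon was 1.24, 1.15 and 1.18 in the *Nf1*/*p53* lines and 1.25, 1.28 and 1.29 in the *Nf1*/*Cdkn2a* lines. It varied 1.13-fold over the 6 lines, whereas *Col4a1* itself varied 56.1-fold and *Col4a2* 51.7-fold. The pair *Col4a5* and *Col4a6*, also head to head and 1308 bases apart, did not keep its proportion. *Col4a5* had 52.7, 64.6 and 10.1 CPM against 58.5, 23.1 and 75.4 CPM (log2 fold change 0.30, SE 0.70). *Col4a6* had 35.1, 21.7 and 0.872 CPM against 5.17, 1.10 and 11.2 CPM (-1.72, SE 1.26, edgeR adjusted p = 0.461). Their ratio varied 14.1-fold over the lines. Whether the gap between the genes has a part in this was not tested. Of the remaining pair, *Col4a4* stayed at or under 0.580 CPM and *Col4a3* at or under 0.657 CPM.

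**Figure D4:**
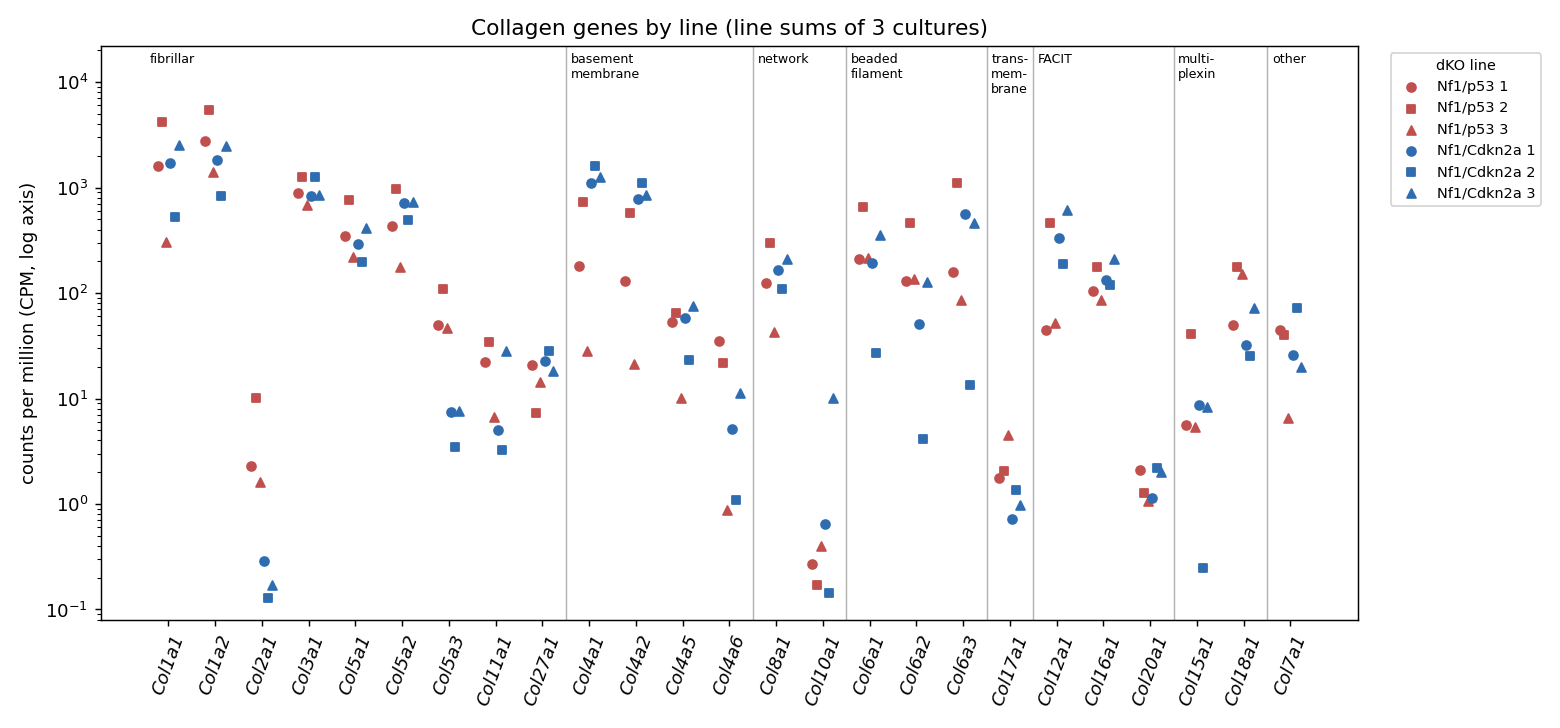
CPM (y axis, log scale) of the 25 collagen genes with a mean of at least 100 counts per line sum, 1 point per line, red for the *Nf1*/*p53* and blue for the *Nf1*/*Cdkn2a* dKO, with the line number as the symbol. The blue points of *Col4a1* and *Col4a2* sit together above the red ones, which spread 26.0-fold and 26.8-fold, and the blue points of *Col5a3* sit below the red ones.

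Of the 5 listed genes that assemble the type IV network, *Nid1* was called higher, where 0.638% of all genes tested were. It encodes nidogen, the linker between laminin and type IV collagen. It had 339, 544 and 272 CPM in the *Nf1*/*p53* lines and 1409, 1039 and 1215 CPM across the *Nf1*/*Cdkn2a* lines, without overlap (log2 fold change 1.67, SE 0.29, edgeR adjusted p = 0.0488). Its adjusted p was 0.0634 to 0.150 with 1 line left out. *Nid2*, its paralog, had 54.9, 23.1 and 20.01 CPM against 16.8, 3.40 and 35.1 CPM, with overlap. *Hspg2*, which encodes perlecan, had 565 to 947 CPM against 763 to 1085 CPM, and *Pxdn*, whose enzyme cross-links type IV collagen, had 67.3 to 154 CPM against 138 to 174 CPM.

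Among the network-forming collagens, *Col8a1*, a chain of the short-chain collagen of vessel walls and cornea, had 125, 301 and 43.1 CPM in the *Nf1*/*p53* lines and 166, 109 and 208 CPM across the *Nf1*/*Cdkn2a* lines (log2 fold change 0.04, SE 0.65). Its partner *Col8a2* was at 0.116, 1.56 and 0.180 CPM against 0.144, 0 and 0.0626 CPM, so that *Col8a1* per kb exceeded it by 111-fold or more wherever *Col8a2* was counted. *Col10a1*, the type X chain made by hypertrophic cartilage cells, was high in 1 line. It had 0.271, 0.170 and 0.401 CPM in the *Nf1*/*p53* lines and 0.642, 0.144 and 10.2 CPM across the *Nf1*/*Cdkn2a* lines, with line 3 at 15.8 times the next line. All 3 cultures of that line were high, at 10.95, 11.1 and 8.25 CPM. The genotype estimate of 3.69 (SE 1.497, edgeR adjusted p = 0.212) fell to 0.48 without it.

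The beaded filament genes *Col6a1*, *Col6a2* and *Col6a3* encode the chains of type VI collagen. *Col6a1* had 210, 657 and 216 CPM in the *Nf1*/*p53* lines and 194, 27.3 and 355 CPM across the *Nf1*/*Cdkn2a* lines. *Col6a2* had 129, 464 and 136 CPM against 50.4, 4.11 and 129 CPM. *Col6a3* had 158, 1104 and 86.7 CPM against 559, 13.4 and 459 CPM. *Nf1*/*p53* line 2 was the highest and *Nf1*/*Cdkn2a* line 2 the lowest for each of these chains, which spanned 24.1-fold, 113-fold and 82.6-fold over the lines.

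The type VI chains were not called by edgeR on the line sums, but *Col6a2* was called lower by limma-voom (adjusted p = 0.00391) and by DESeq2 on the 18 cultures (adjusted p = 0.00572). The log2 fold changes were -0.91 (SE 0.88, edgeR adjusted p = 0.580) for *Col6a1*, -1.99 (SE 1.11, edgeR adjusted p = 0.337) for *Col6a2* and -0.39 (SE 1.35, edgeR adjusted p = 0.887) for *Col6a3*. Only *Col6a2* among them had lines that did not overlap, with the lowest *Nf1*/*p53* line at 129.4 CPM and the highest *Nf1*/*Cdkn2a* line at 128.5 CPM. For *Col6a3* the estimate turned to 1.504 without *Nf1*/*p53* line 2 and to 0.19 without *Nf1*/*Cdkn2a* line 2. *Col6a5* stayed under 1 CPM in every line, and so did *Col6a4* and *Col6a6*.

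The transmembrane collagens were scarce. *Col25a1*, a collagen of the neuronal and muscle surface, had 0.528, 0.368 and 0.360 CPM in the *Nf1*/*p53* lines and 0.0481, 0.0433 and 0.0313 CPM across the *Nf1*/*Cdkn2a* lines, without overlap (log2 fold change -3.30, SE 0.49, edgeR adjusted p = 0.0388). This rested on 93 counts against 8, a 10.3-fold ratio with an exact 95% interval of 5.02 to 24.6 that covers counting error only. *Col17a1*, a collagen of hemidesmosomes, had 1.77, 2.04 and 4.47 CPM against 0.722, 1.36 and 0.985 CPM, without overlap (-1.43, SE 0.50, edgeR adjusted p = 0.164). *Col23a1* was at 0.0144 to 0.673 CPM with overlap. *Col13a1* had 16 counts in all, each of them in *Nf1*/*p53* line 3.

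Among the FACIT collagens, *Col19a1* (chromosome 1, 24261890 to 24587472, minus strand), a FACIT collagen of muscle and brain, had 0.928, 0.311 and 0.277 CPM in the *Nf1*/*p53* lines and 0, 0.0144 and 0 CPM across the *Nf1*/*Cdkn2a* lines. It was called (edgeR adjusted p = 0.0478) on 114 counts against 1, a 101-fold ratio with an exact 95% interval of 17.8 to 4028 for counting error only; its fitted log2 fold change of -6.21 (SE 1.07) depends on how a count near 0 is treated. *Col12a1*, which binds the surface of type I fibrils, had 44.995, 457 and 51.8 CPM against 336, 188 and 616 CPM (1.04, SE 0.96, edgeR adjusted p = 0.562). It was called higher by limma-voom only. *Col16a1*, the FACIT gene highest per kb, had 105, 176 and 86.4 CPM against 132, 118 and 211 CPM, and *Col20a1* stayed between 1.07 and 2.19 CPM. All 3 of these overlapped between the genotypes. *Col14a1* was low and did not overlap, with 0.255 to 0.498 CPM against 0.0288 to 0.125 CPM (-2.37, SE 0.66, edgeR adjusted p = 0.109). This gene, too, passed the filter only through the *Nf1*/*p53* lines.

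The multiplexins *Col15a1* and *Col18a1* are basement membrane collagens with long glycosaminoglycan chains. *Col18a1* had 49.6, 176 and 153 CPM in the *Nf1*/*p53* lines and 32.3, 25.1 and 71.7 CPM across the *Nf1*/*Cdkn2a* lines, overlapping by *Nf1*/*p53* line 1 (log2 fold change -1.55, SE 0.57, edgeR adjusted p = 0.183). It was called lower by limma-voom and by DESeq2 on the 18 cultures, but not by DESeq2 on the line sums. *Col15a1* had 5.57, 41.3 and 5.42 CPM against 8.66, 0.245 and 8.24 CPM, and its estimate of -1.61 (SE 1.29) turned to 0.070 without *Nf1*/*p53* line 2. *Col7a1*, the anchoring fibril chain, had 44.4, 40.2 and 6.60 CPM against 26.1, 71.8 and 19.99 CPM (0.37, SE 0.77). The scarce genes *Col28a1* (0.0288 to 0.721 CPM), *Col22a1* (0.0321 to 0.595 CPM) and *Col9a3* (0.168 to 0.438 CPM) overlapped between the genotypes, and *Col9a2* had 20 counts in all.

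The second question was whether lines of 1 genotype differed by more than their cultures. It was tested by an edgeR quasi-likelihood F test over the 18 cultures in 1 fit, which tested 36 collagen genes (with *Col8a2* and without *Col22a1*). Among the *Nf1*/*p53* lines 28 of 36 were called, beside 73.2% of all genes tested, and among the *Nf1*/*Cdkn2a* lines 25 of 36, beside 56.8%. Of the 25 genes with a mean of at least 100 counts per line, 24 were called among the *Nf1*/*p53* lines and 22 among the *Nf1*/*Cdkn2a* lines. The exception in the *Nf1*/*p53* lines was *Col10a1*, and the exceptions in the *Nf1*/*Cdkn2a* lines were *Col2a1*, *Col17a1* and *Col20a1*. The highest line exceeded the lowest by a median of 5.18-fold in the *Nf1*/*p53* and 2.86-fold in the *Nf1*/*Cdkn2a* dKO. The same numbers for all genes with such counts were not computed. Neither the counts of called genes among the 25 nor these folds are therefore read as particular to collagens.

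For these 25 genes a median of 1.01% of the sum of squares of log2 CPM over the 18 cultures lay between cultures of a line. The genotype has 1 of the 5 degrees of freedom among lines, a share of 20%, and it held a median of 20.5% of the sum of squares. It held 90.6% for *Col5a3* and 55.4% for *Col4a1*. *Nf1*/*p53* line 2 was highest for 14 of the 25 genes, and *Nf1*/*p53* line 3 and *Nf1*/*Cdkn2a* line 2 were lowest for 11 each.

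Chains that assemble into 1 trimer were set against each other per kb of exon. *Col1a1* to *Col1a2* was 1.10, 1.44 and 0.410 in the *Nf1*/*p53* lines and 1.78, 1.20 and 1.95 in the *Nf1*/*Cdkn2a* lines. With the longest transcript as the length, all 6 ratios were at or under 0.928, because the union of *Col1a2* exons is 12426 bases and its longest transcript 5348 bases. The order of the 2 chains therefore depends on the length used, whereas the 4.75-fold spread over lines does not. *Col5a1* to *Col5a2* was 0.905, 0.904 and 1.41 against 0.459, 0.449 and 0.647, without overlap. *Col6a1* to *Col6a2* was 3.08, 2.69 and 3.02 against 7.31, 12.6 and 5.25, also without overlap. *Col6a3* to *Col6a1* ran from 0.147 to 1.06 with overlap. Among these 5 ratios *Col4a1* to *Col4a2* had the narrowest spread.

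**Figure D5:**
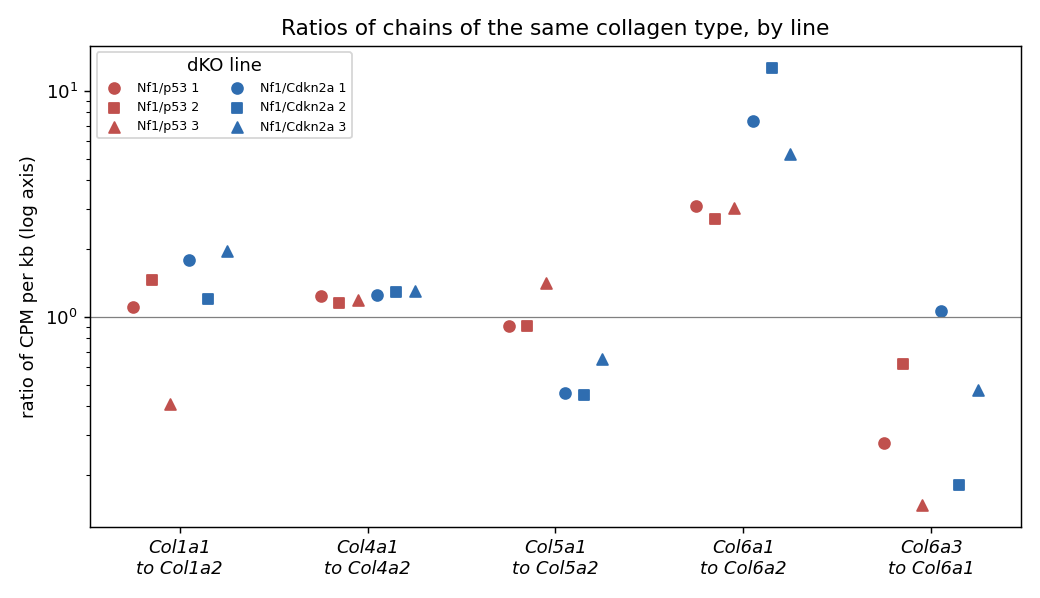
Ratio of CPM per kb of exon (y axis, log scale) between chains of the same collagen type, 1 point per line, red for the *Nf1*/*p53* and blue for the *Nf1*/*Cdkn2a* dKO. *Col4a1* to *Col4a2* stays between 1.15 and 1.29, and *Col6a1* to *Col6a2* lies at 2.69 to 3.08 in red and 5.25 to 12.6 in blue.

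The genes that fold and modify procollagen ranged from steady to widely spread over the lines. Of 23 listed, 22 were tested and 0 were called by edgeR, with 3 at an unadjusted p under 0.05 and a median log2 fold change of 0.20. Over all genes tested, 22.4% stood at such a p. Counts of other lists that include genes which passed the filter only through the *Nf1*/*p53* lines are not read against it. Among the *Nf1*/*p53* lines 22 of 22 were called, beside 73.2% of all genes tested, and among the *Nf1*/*Cdkn2a* lines 17 of 22, beside 56.8%. *Serpinh1*, the collagen chaperone HSP47, had 506, 1261 and 695 CPM in the *Nf1*/*p53* lines and 977, 985 and 877 CPM across the *Nf1*/*Cdkn2a* lines (0.21, SE 0.33). *P4ha1*, a prolyl hydroxylase subunit, had 177, 266 and 162 CPM against 221, 167 and 376 CPM. The highest estimate was 2.74 for *P3h2*, which hydroxylates proline at another position and is known for acting on type IV collagen. It had 1.04, 3.62 and 1.25 CPM against 9.66, 7.23 and 22.6 CPM, without overlap (edgeR adjusted p = 0.0871). The lowest was -3.01 for *P4ha3*, another prolyl hydroxylase subunit, with 13.2, 51.8 and 14.1 CPM against 6.53, 0.332 and 2.94 CPM, a 156-fold span without overlap between the genotypes (edgeR adjusted p = 0.169). *Crtap*, which encodes cartilage-associated protein, spanned 1.24-fold.

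Of 16 genes for propeptide removal, cross-linking and fibril binding, 15 were tested. Of these, 1 was called lower (1.16% of all genes tested) and 6 stood at an unadjusted p under 0.05 (22.4%). The 6 include *Lum*, which passed the filter only through the *Nf1*/*p53* lines, so they are not read against that share. The called gene was *Dcn*, which encodes the fibril-binding proteoglycan decorin. It had 119, 104 and 934 CPM in the *Nf1*/*p53* lines and 3.40, 6.59 and 4.29 CPM across the *Nf1*/*Cdkn2a* lines (log2 fold change -6.34, SE 1.08, edgeR adjusted p = 0.047). With 1 line left out its adjusted p was 0.032 to 0.153, and the estimate moved to -4.55 without *Nf1*/*p53* line 3. *Lum*, encoding the related lumican, had 17.04, 1.41 and 65.4 CPM against 0, 0.0433 and 0.0313 CPM. *Lox*, the lysyl oxidase that starts cross-linking, had 314, 1566 and 684 CPM against 84.6, 45.7 and 227 CPM, without overlap (-2.84, SE 0.79, edgeR adjusted p = 0.109). *Bmp1*, the procollagen C-proteinase, had the highest estimate at 0.80, with 78.4 to 144 CPM against 176 to 193 CPM.

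Of 11 collagen receptors and uptake genes, 10 were tested and 0 were called by edgeR, with 1 at an unadjusted p under 0.05. The estimates ran from -1.78 for the integrin gene *Itga11*, with 0.193, 4.37 and 0.886 CPM against 0.112, 0.188 and 1.28 CPM, to 1.51 for *Itga1*, with 3.21, 7.86 and 0.747 CPM against 7.96, 10.5 and 15.3 CPM. The lines of *Itga1* did not overlap between the genotypes, nor did those of *Ddr2*, a receptor for fibrillar collagen, with 198 to 280 CPM against 300 to 398 CPM. *Itgb1*, the beta subunit of the collagen-binding integrins, also lay higher without overlap, with 415 to 1642 CPM against 1861 to 2340 CPM, and *Itga10* lay lower, with 2.31 to 5.16 CPM against 1.27 to 2.20 CPM. Of the 10 tested, 3 thus lay higher without overlap, beside 14.8% of all genes tested, and 1 lower, beside 16.6%.

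Markers of other cell types moved with the genotype in some lists, and their part in the collagen levels was not tested. The 10 skeletal muscle markers summed to 114 to 578 CPM in the *Nf1*/*p53* lines and 7.60 to 28.04 CPM across the *Nf1*/*Cdkn2a* lines. Of the 5 tested, 2 were called lower, *Myf5* and *Cdh15*, with edgeR adjusted p up to 0.0795 and 0.0997 when 1 line was left out. *Myf5* passed the filter only through the *Nf1*/*p53* lines, so this count is not read against the 1.16% of all genes called lower. *Myod1* was at 1.75, 0.269 and 204 CPM against 0 in each *Nf1*/*Cdkn2a* line, and *Chrna1* had the least negative estimate at -2.52. The defining satellite cell gene *Pax7* was at or under 0.0277 CPM. The 12 fibroblast markers summed to 3698 to 10070 CPM against 2679 to 4347 CPM, and 0 of the 11 tested were called by edgeR, with 2 at an unadjusted p under 0.05. Their estimates ran from -3.77 for *Fbln2* to 1.16 for *Fap*, the latter resting on *Nf1*/*Cdkn2a* line 3 (15.9 CPM) and at -1.14 without it. Of the bone markers 0 of 5 tested were called by edgeR, with 3 at an unadjusted p under 0.05 and sums of 2306 to 4354 CPM against 1209 to 2989 CPM, mostly from *Spp1*. The 3 include *Sp7*, which passed the filter only through the *Nf1*/*p53* lines, so they are not read against a share. The bone estimates ran from -3.27 for *Sp7* to -0.14 for *Dmp1*.

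The 12 Schwann cell markers summed to 8.97 to 84.6 CPM against 6.29 to 63.2 CPM, mostly from *Gap43* (estimate 0.71, the highest of that list) and, in *Nf1*/*p53* line 2, *Ngfr*. The gene *Cdh19* was at 0.425, 3.90 and 0.138 CPM against 0 in each *Nf1*/*Cdkn2a* line. None of the 9 tested was called by edgeR, with 3 at an unadjusted p under 0.05. The 3 include *Cdh19*, which passed the filter only through the *Nf1*/*p53* lines, so they are not read against a share. Endothelial markers summed to 4.04 to 7.08 CPM in all lines, with *Tek* called lower (adjusted p 0.0606 to 0.155 with 1 line left out) and *Cdh5* highest at 1.61. *Tek* passed the filter only through the *Nf1*/*p53* lines. Leukocyte markers summed to 4.08 to 8.24 CPM against 18.5 to 26.7 CPM, with *Laptm5* called higher (0.503, 0.0849 and 0.166 CPM against 11.8, 10.99 and 18.6 CPM, with an adjusted p up to 0.112 when 1 line was left out) and *Csf1r* lowest at -0.76. The leukocyte gene *Ptprc* stayed at or under 0.563 CPM. Cartilage estimates ran from -4.05 for *Hapln1* to 0.10 for *Sox6*.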

How the data were processed

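RNA from 18 cultures (6 lines, 3 cultures each) was sequenced after library preparation by a company. The values are counts of reads for each gene in each culture, which the authors deposited without scaling. The submitters' processing notes name CASAVA, STAR 2.5, DESeq2 1.14.1 and the GRCm38 (mm10) build. The counting tool, its annotation and its strand setting are not given in the sources used here, so reads of overlapping genes cannot be told apart where the strand was ignored. Such exon overlaps covered at most 6.07% of a collagen gene.

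Cultures of a line were summed, because a line is 1 tumor. edgeR 4.0.16 (filterByExpr with a minimum count of 10 and a minimum total of 15, TMM, quasi-likelihood test, two-sided, Benjamini-Hochberg adjustment) compared 3 lines with 3, and a gene was called at an adjusted p under 0.05. The test among lines used the 18 cultures in 1 fit. The study describes the cultures of a line as independent samples, and p-values among lines cover the spread between cultures of 1 tumor line. Alternatives were DESeq2 1.42.0, limma 3.58.1 (voom, where the line was a random term), other scalings, other filters and left-out lines or cultures. Levels per kb used the union of GENCODE M21 exons. The tests were checked on simulated counts with the same fixed spread for all genes. This check does not show how they behave at the spread between these lines. Culture pairs of a line differed by more than sampling noise (chi-square per degree of freedom 3.57 to 29.2), so each culture was kept as a separate one.

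The members, their classes and the 11 gene lists were chosen with earlier results of these data known. Of 131 list entries, 9 were matched by identifier through an older symbol. Values are given for every line for called genes, genes of at least 100 counts per line whose lines did not overlap with an absolute log2 fold change of at least 1, the most abundant and the extreme genes of each class, chains of the ratios, and genes with 1 line at 10 times the next; of the lists, the called and the extreme genes with *Serpinh1*, *P4ha1* and *Lox*. Others named were added after their values were seen. Line numbers did not pair the samples (correlations of deviations -0.117, -0.13 and -0.0832). RefSeq promoter windows were at hand for 35 of the 44 genes.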

Additional observations from a re-analysis of the deposited data

Results flagged for a closer look

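Of 54 sets of 9 cultures (a collagen gene in 1 genotype), 1 had a culture that stood apart from the others by more than the Dixon limit. The 9 cultures come from 3 lines that differ, so they are not independent values. The chance rate of that limit does not hold for them, and nothing is concluded from the count. Culture 3 of *Nf1*/*p53* line 3 had 0.928 CPM of *Col10a1*, and the next culture of that genotype had 0.402 CPM.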

How the results depend on the processing

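Collagen genes called between the genotypes, 3 in edgeR on line sums (3 lower, 0 higher), numbered 17 in DESeq2 on the 18 cultures (13 lower, 4 higher, beside 7186 of 18308 for all genes), 6 in limma-voom, where line was a random term (3 higher, beside 2173 of 13110), 7 in DESeq2 on line sums (6 lower, 1 higher, beside 2060 of 17238) and 1 where every line needed at least 10 counts (beside 226 of 13092). With 1 line left out they numbered 0 to 1, and the calls over all genes fell from 274 to between 0 and 172. With line numbers as a replicate block the count was 0, as for all genes, and the numbers do not pair the samples. DESeq2 size factors left it at 3. Raw total counts and the open filter gave 4. Counts among lines stayed between 23 and 28 in both genotypes, with culture numbers as a block at 27 (*Nf1*/*p53*) and 25 (*Nf1*/*Cdkn2a*). The median of the 36 genes was 0.024 under the filter of 10 counts per line, which drops scarce genes, and -0.94 to 0.078 with 1 line left out; the fibrillar median then ran from -0.89 to 0.091 and the type IV median from -0.16 to 0.75. Raw totals moved the median of all genes tested from -0.023 to -0.16. Signs changed as follows, and the cause was not tested. By limma-voom, *Col1a1* was at 0.042 and *Sox6* at -0.43. Under raw totals, *Col3a1* was at -0.074, *Col8a1* at -0.076 and *Sox6* at -0.0063. Under the block, *Col1a1* was at 0.071, *Col6a3* at 0.55, *Fap* at -0.37, *Sox6* at -0.16 and *Dmp1* at 0.014. With 1 line left out, the log2 fold change ran from -0.86 to 0.76 for *Col1a1*, -0.15 to 0.32 for *Col3a1*, -0.16 to 0.75 for *Col4a5*, -0.89 to 0.091 for *Col5a1*, -0.11 to 1.08 for *Col5a2*, -0.92 to 1.504 for *Col6a3*, -0.39 to 0.75 for *Col7a1*, -0.40 to 0.95 for *Col8a1*, -2.03 to 0.070 for *Col15a1*, -0.047 to 0.67 for *Serpinh1*, -0.048 to 0.60 for *P4ha1*, -1.14 to 1.73 for *Fap*, -0.80 to 0.85 for *Sox6* and -0.76 to 0.63 for *Dmp1*. A genotype of 2 lines is then assumed to vary like the other. For the 17 genes under 1 CPM in every line, depth limits what could be seen.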
